A study of Rattus norvegicus with 12 samples.

Results

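The genes described here are those of the Slc1, Slc3, Slc6, Slc7, Slc36, Slc38 and Slc43 families, whose members carry amino acids and a few related solutes across membranes. They were chosen by symbol, with earlier results of these data known: 61 symbols of these families were listed, 57 in the control and adenine table and 61 in the sham and UUO table. A member was kept where its FPKM (fragments scaled by transcript length and by mapped fragments) reached 0.5 in 3 or more samples of a table. This left 42 members among the 22132 entries of the first table and 39 among the 32623 entries of the second. All 39 were kept in both. Of the 42, 11 belonged to Slc7, 10 to Slc6, 8 to Slc38, 4 each to Slc1 and Slc36, 3 to Slc43 and 2 to Slc3. The other 19 symbols were kept in neither table, and 17 of them stayed under an FPKM of 1 in every sample of the tables that list them. The exceptions were Slc38a5, which reached 1.55 in one sample, and Slc7a10, which reached 1.003.

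RNA was sequenced from kidneys of 12 male SD rats of WT genotype, bought at 8 weeks of age, with 3 rats in each of 4 groups. The adenine group was dosed by stomach tube with 220 mg/kg of adenine daily over 3 weeks, and the control group with saline over the same 3 weeks. In the UUO (unilateral ureteral obstruction) group the left ureter was tied at both ends under isoflurane and kidneys were collected after 2 weeks, while the sham group went through the surgery without the tie. Both are models of renal fibrosis made in whole animals, one by a chemical and one by obstruction, and the RNA came from whole kidney tissue, so fewer cells of a type and less RNA per cell cannot be told apart.

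The kidney filters free amino acids and takes nearly all of them back in the proximal tubule. Carriers of the luminal membrane bring them into the cell with sodium, protons or in exchange, and exchangers and facilitated carriers of the basolateral membrane let them out into the blood. Some carriers work as pairs, in which a heavy chain (Slc3a1, also called rBAT, or Slc3a2, also called 4F2hc) brings a light chain of the Slc7 family to the membrane. Other members serve cell growth, glutathione synthesis, osmotic balance, signalling or the lysosome.

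FPKM sums, which are not depth, lay between 564972 and 582725 in control samples, 468389 and 487770 in adenine samples, 619664 and 630244 in sham samples and 528811 and 539011 in UUO samples. How many reads lie behind a sample is not known. One library stood apart from its group before any disease comparison. In control replicate 2, the summed FPKM of 3 podocyte markers was 29.7, against 136 and 189 in the other control samples, and that of 4 markers of the distal tubule and collecting duct was 122, against 685 and 457. Slc5a2, the glucose carrier of the early proximal tubule, was at 0.232 there, against 13.7 in control replicate 1 and 2.47 in control replicate 3. Without this library 8 members were upregulated and 9 downregulated in the adenine model, and several values that moved are given below with and without it. Slc38a4 did not pass with it (log2 fold change 0.96, limma adjusted p = 0.159) and rose without it (1.54, adjusted p = 0.0132). Slc36a2 and Slc43a1 passed neither way, and their log2 fold changes went from 2.03 to 1.28 and from 0.76 to 0.30.

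Markers of several cell types moved along with the carriers. The summed FPKM of 7 proximal tubule markers went from between 2129 and 2988 in control to between 151 and 441 in adenine samples, and from between 2568 and 3069 in sham to between 286 and 538 in UUO samples. In each model 5 of the 7 fell, while Slc5a2 and Cubn did not pass the test. The sum of 4 macrophage markers, all upregulated in both models, went from at most 35.2 in control to at least 748 in adenine samples and from at most 45.3 in sham to at least 370 in UUO samples. Markers of fibroblasts (4 of 4), injured tubule (3 of 3) and T cells (3 of 3) also rose in both models, and both thick ascending limb markers fell in both. The sum of the distal tubule and collecting duct markers went from between 122 and 685 to between 61.9 and 266 in the adenine model, where 2 of 4 fell, and from between 242 and 638 to between 28.6 and 38.3 in the UUO model, where all 4 were downregulated. The sum of 3 urothelium markers, none of them tested in the adenine model, was at most 0.607 in sham and at least 51.5 in UUO samples. The part of these shifts in the results on carriers was not tested.

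In the undiseased kidneys the order of the levels was steep. Slc3a1 (2017 ± 491 FPKM in control and 2075 ± 442 in sham, SD, n = 3) and Slc7a13 (1518 ± 522 and 1377 ± 495) stood above the rest, and their ranges overlapped each other. Slc7a13, or AGT1, is a light chain that carries aspartate, glutamate and cystine in the late proximal tubule. Slc6a18 came next, at 300.5 ± 66.0 and 254 ± 39.7, with ranges that touched neither neighbour in this order. Slc38a3 followed at 166 ± 33.8 and 134 ± 25.1. In control its range overlapped that of Slc7a12 (136 ± 95.9), and in sham it lay above those of Slc1a1 (86.5 ± 4.21) and Slc7a12 (85.6 ± 31.4), which overlapped. From the fifth member down most neighbours overlapped. The tables were made separately, so levels set across them are side by side only.

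These levels collapsed onto a flatter order in disease. The summed FPKM of the members was 4542 ± 1137 in control and 643 ± 76.7 in adenine samples, and 4484 ± 1025 in sham and 718 ± 57.9 in UUO samples. Slc3a1 and Slc7a13 together held 77.3% ± 3.12 of this sum in control and 10.4% ± 4.13 in adenine samples, and 76.6% ± 2.90 in sham and 16.5% ± 2.30 in UUO samples. Without these 2 genes the sum was 1006 ± 134 in control and 574 ± 43.1 in adenine samples, and 1032 ± 96.5 in sham and 599 ± 33.9 in UUO samples. Groups did not overlap in any of these sums and shares. The exact two-sided permutation test over the 10 splits of 3 against 3 gave p = 0.1 for each, the smallest it can give.

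**Figure D1:**
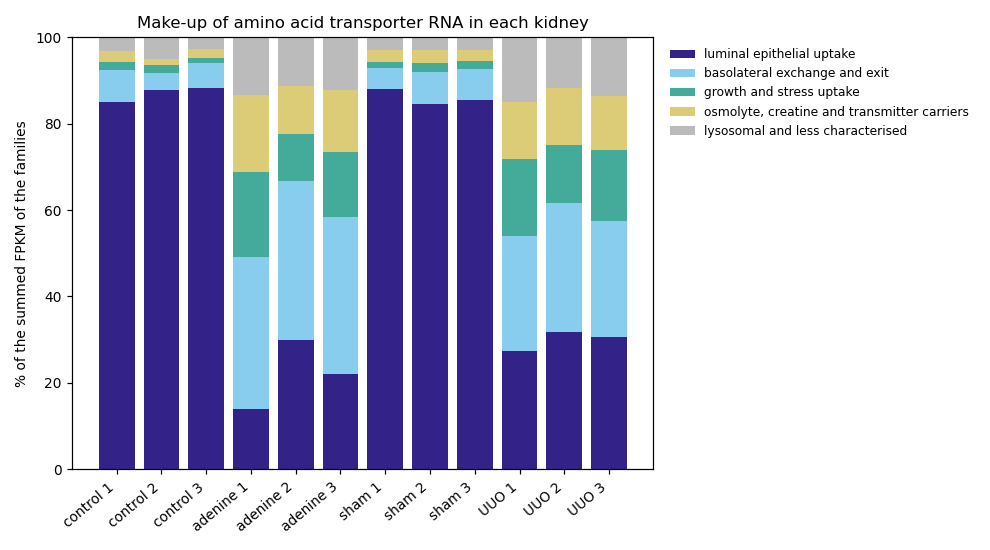
Share of the summed FPKM of the amino acid transporter families (%, vertical axis) held by each of 5 role groups in each of the 12 kidneys, 1 bar per rat. Luminal carriers hold 84.6% to 88.3% in control and sham bars, 13.9% to 30.02% in adenine bars and 27.4% to 31.7% in UUO bars.

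By role, carriers of luminal uptake held 87.0% ± 1.72 of the sum in control and 22.0% ± 8.04 in adenine samples, and 86.0% ± 1.71 in sham and 29.9% ± 2.23 in UUO samples. Adenine replicate 1 had the lowest share of all, 13.9%. The basolateral group held exchangers, exit carriers and the sodium-coupled glutamine carrier Slc38a3, its highest member in control and in sham. The share of this group went from 5.68% ± 1.71 to 36.1% ± 0.753 in the adenine model. In the UUO model the share went from 6.51% ± 1.29 to 27.8% ± 1.79. As shares add up to a whole, a rise in one can follow from a fall in another.

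Across all members, 9 were upregulated and 9 downregulated in the adenine model (limma, Benjamini-Hochberg adjusted p under 0.05 over all tested entries and a log2 fold change of 2 or more in size). Over all 15029 tested entries the shares were 10.7% upregulated and 5.03% downregulated. At an adjusted p under 0.05 alone, 20 members rose and 9 fell, against 39.6% and 19.9% of all entries. The median log2 fold change was 0.96 over the members and 0.30 over all entries. Here and below, log2 fold changes are on the scale of log2(FPKM + 0.1), which understates the change of low genes.

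The UUO model had 5 upregulated and 7 downregulated members, against 13.2% and 4.21% of its 15043 tested entries. At an adjusted p under 0.05 alone, 17 rose and 12 fell, against 56.1% and 14.4%. The median log2 fold change was 0.19 over the members and 0.62 over all entries, so the members' median lay below that of all entries. Scaling by the median of ratios, which takes the shift of all entries to 0.03, gave 1 upregulated and 11 downregulated members, with 8 risen and 17 fallen. With this scaling 8.30% of all entries were upregulated, 6.34% downregulated, 28.0% risen and 27.9% fallen. In the adenine model the same scaling gave 7 upregulated and 9 downregulated, with 18 risen and 9 fallen. There the scaled shares of all entries were 8.72% upregulated, 6.37% downregulated, 29.0% risen and 28.4% fallen. Of the kept members, Slc7a11, Slc7a2 and Slc36a3 in the adenine table and Slc7a11 and Slc7a2 in the UUO table passed the FPKM minimum only through the diseased samples, and Slc7a12 (adenine table) and Slc6a4 (UUO table) only through the undiseased ones, so these had to differ.

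**Figure D2:**
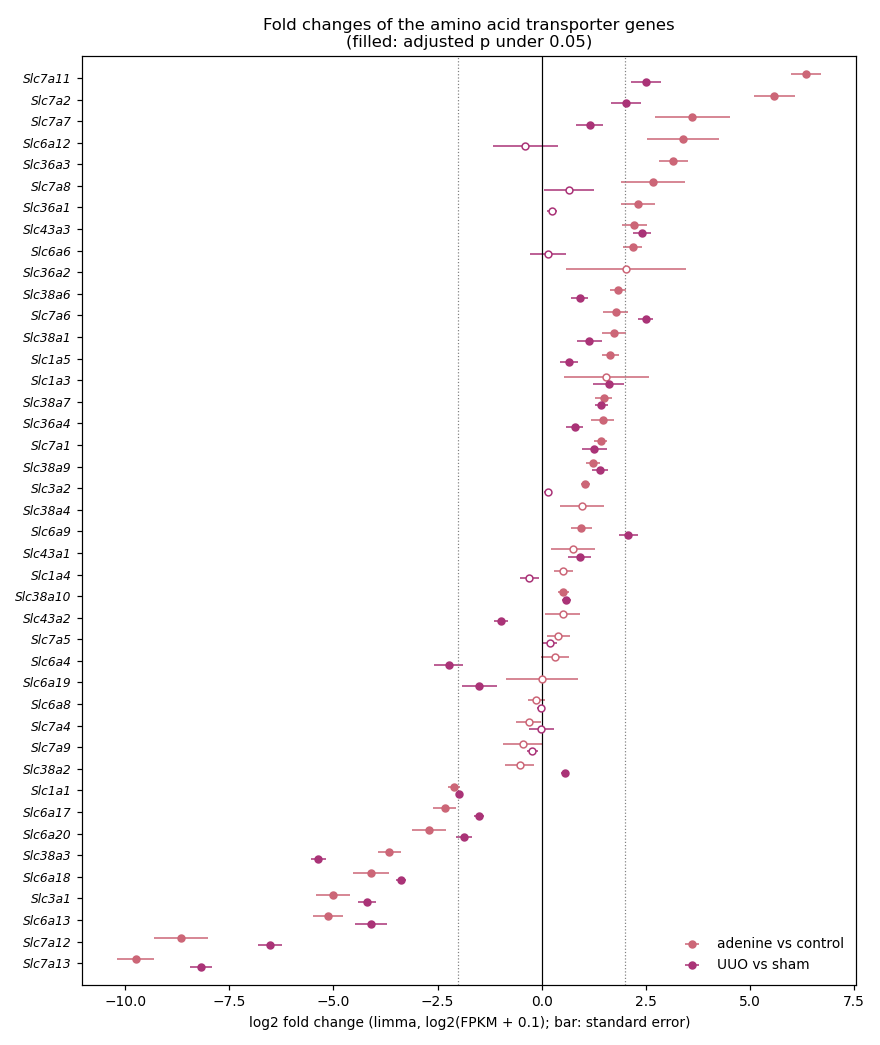
Log2 fold changes of the kept members (horizontal axis, limma on log2(FPKM + 0.1), bars show the standard error) for adenine against control and UUO against sham, 3 rats per group, ordered by the adenine model. Filled points have an adjusted p under 0.05, dotted lines mark a log2 fold change of 2 in either direction, members with a single point were kept in 1 table, and the point of Slc36a3 is set against control samples listed at 0 and gives no fold. Slc7a13 lies lowest in both models, and Slc7a11 highest, in the UUO model at 2.51 beside 2.50 for Slc7a6.

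Most luminal carriers fell. Of the 8 tested in the adenine model, 5 were downregulated and 3 did not pass. Of the 7 tested in the UUO model, 3 were downregulated, another 3 fell at a smaller fold and 1 did not pass. Over all entries 5.03% were downregulated and 19.9% fell at any fold under adenine, and 4.21% and 14.4% under UUO. Slc7a13 was at 963, 1997 and 1596 FPKM in the 3 control samples and at 0.785, 2.22 and 2.24 in the adenine samples. It was at 1922, 956 and 1253 in sham and at 5.03, 3.52 and 5.04 in UUO samples. In group means this was 868-fold lower in adenine and 304-fold lower in UUO samples. The log2 fold changes were -9.75 ± 0.44 (SE, adjusted p = 2.61e-05) and -8.18 ± 0.27 (adjusted p = 6.46e-06).

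Slc3a1, the heavy chain of the luminal carrier of cystine and dibasic amino acids, was at 1455, 2357 and 2239 in control and at 32.6, 98.6 and 70.7 in adenine samples. It went from 2585, 1805 and 1835 in sham to 85.4, 133 and 125 in UUO samples. The log2 fold changes were -5.01 ± 0.41 (adjusted p = 0.000138) and -4.18 ± 0.22 (adjusted p = 1.85e-05). Slc7a9, or b0,+AT, the light chain of this cystine and dibasic carrier, did not pass the test in either model. Slc7a9 was at 43.4, 32.0 and 34.4 in control and at 12.3, 51.0 and 29.6 in adenine samples, with groups that overlapped and a log2 fold change of -0.45 ± 0.48 (adjusted p = 0.442). Sham samples were at 45.0, 44.8 and 53.0 and UUO samples at 36.6, 48.2 and 38.3, again with overlap, and the log2 fold change was -0.22 ± 0.13 (adjusted p = 0.17). After median-of-ratios scaling Slc7a9 fell in the UUO model, by 0.82 on the log2 scale (adjusted p = 0.00219).

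Within a kidney the ratio of the light chains turned over. The log2 ratio of Slc7a13 to Slc7a9 went from 5.32 ± 0.768 in control to -4.07 ± 0.412 in adenine samples and from 4.80 ± 0.540 in sham to -3.19 ± 0.511 in UUO samples. The log2 ratio of the heavy chains, Slc3a2 to Slc3a1, went from -5.32 ± 0.512 to 0.74 ± 0.829 and from -4.69 ± 0.362 to -0.35 ± 0.219. Slc3a2 thus stood above Slc3a1 in all 3 adenine samples and below it in all 3 UUO samples. These ratios do not depend on scaling between samples. Groups did not overlap, and the exact permutation test gave its smallest p, 0.1, for each.

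**Figure D3:**
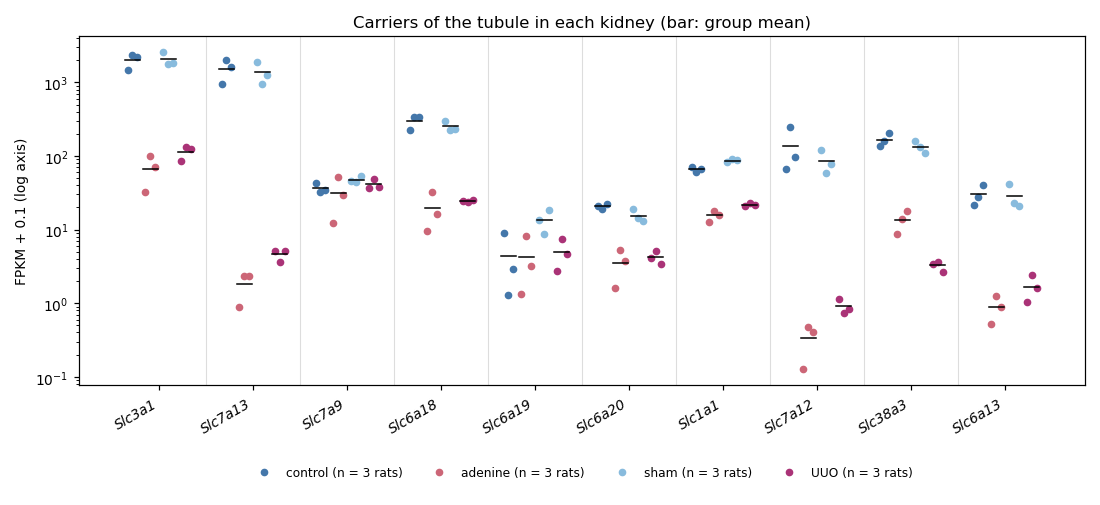
FPKM + 0.1 (log axis) of 10 carriers of the tubule in each of the 12 kidneys, 1 point per rat and a bar at the group mean. Slc3a1 and Slc7a13 start near the same height and end apart, Slc7a9 overlaps between groups in both models, and Slc6a19 overlaps in the adenine model.

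Of the luminal carriers of neutral amino acids, Slc6a18 was downregulated in both models. Slc6a18, the carrier of the late proximal tubule, was at 224, 340 and 337 in control and at 9.41, 32.6 and 16.4 in adenine samples (log2 fold change -4.10 ± 0.43, adjusted p = 0.00035). It was at 300, 228 and 234 in sham and at 24.1, 23.6 and 25.2 in UUO samples (-3.37 ± 0.12, adjusted p = 8.84e-06). Slc6a19, or B0AT1, the carrier of the early proximal tubule, was at 8.96, 1.19 and 2.82 in control and at 1.23, 8.07 and 3.12 in adenine samples, with a log2 fold change of 0.01 ± 0.87 (adjusted p = 0.993). This value was -0.66 without control replicate 2 and ranged from -0.66 to 0.75 when 1 sample was left out. It fell in the UUO model, from 13.6, 8.59 and 18.3 to 2.63, 7.40 and 4.63 (-1.50 ± 0.42, adjusted p = 0.0157). Without sham replicate 3 its adjusted p was 0.0506.

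Slc6a19 varied together with Slc5a2 among the control samples, where both were highest in replicate 1 and lowest in replicate 2. Slc6a20, a carrier of proline and other imino acids, was downregulated in the adenine model (-2.70 ± 0.41, adjusted p = 0.00154), with control at 19.1 to 21.8 and adenine at 1.52 to 5.24. It fell under UUO from 18.8, 14.1 and 13.1 to 4.03, 5.03 and 3.36 (-1.87 ± 0.20, adjusted p = 0.000238). Slc1a1, or EAAC1, the luminal carrier of glutamate and aspartate, fell in both models. Its log2 fold change was -2.10 ± 0.15 (adjusted p = 8.07e-05) in the adenine model, or -1.97 without adenine replicate 1, and -1.98 ± 0.08 (adjusted p = 1.26e-05) in the UUO model. Slc36a2, a proton-coupled carrier of glycine and proline, was kept in the adenine table alone. It was at 1.06, 0 and 0.0992 in control and at 8.30, 0.140 and 0.678 in adenine samples, so one adenine sample carried its mean.

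Among the adenine samples, replicate 2 had the highest sum of proximal tubule markers, 441 against 151 and 237, and also the highest values of 6 of the 8 luminal members, Slc1a1, Slc3a1, Slc6a18, Slc6a19, Slc6a20 and Slc7a9. Replicate 1 had the lowest sum and the lowest values of these 6 and of Slc7a13. Slc7a13 was highest in replicate 3, and Slc36a2 went the other way, highest in replicate 1 and lowest in replicate 2.

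Promoter sequences were available from RefSeq (rat build GRCr8, 250 bases before to 50 bases after the start of each gene) for 31 of the 42 members by symbol. Slc1a1, Slc1a5, Slc6a4, Slc6a13, Slc6a20, Slc7a2, Slc7a4, Slc7a13, Slc38a3, Slc38a10 and Slc43a3 had no entry. Those below belong to the heavy chain Slc3a1, which fell, and the light chain Slc7a9, which did not pass the test. Next are 2 further genes with deep falls, Slc7a12 and Slc6a18. Last comes Slc6a19, which did not pass in the adenine model and is the neighbour of Slc6a18 on chromosome 1. Capitals mark letters found on either strand: the HNF1 motif GTTAAT, the HNF4 motif CAAAGTCCA and the antioxidant response element TGACNNNGC. HNF1 and HNF4 are transcription factors of the proximal tubule. Each is written 5′ to 3′ on the strand of its gene.
Slc3a1 (chr6:15394700-15394999, minus strand): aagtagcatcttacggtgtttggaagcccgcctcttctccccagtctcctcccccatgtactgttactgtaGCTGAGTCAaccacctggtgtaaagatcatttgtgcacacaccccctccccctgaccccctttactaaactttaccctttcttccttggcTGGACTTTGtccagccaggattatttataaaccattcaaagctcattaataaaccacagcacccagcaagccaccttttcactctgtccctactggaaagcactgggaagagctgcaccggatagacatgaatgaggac
Slc7a9 (chr1:97246632-97246931, plus strand): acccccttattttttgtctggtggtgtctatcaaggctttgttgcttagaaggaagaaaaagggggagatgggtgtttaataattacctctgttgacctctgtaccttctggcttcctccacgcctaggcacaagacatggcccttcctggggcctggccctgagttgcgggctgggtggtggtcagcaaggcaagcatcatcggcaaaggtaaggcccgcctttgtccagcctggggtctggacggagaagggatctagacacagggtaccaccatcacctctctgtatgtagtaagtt
Slc7a12 (chr2:88868054-88868353, minus strand): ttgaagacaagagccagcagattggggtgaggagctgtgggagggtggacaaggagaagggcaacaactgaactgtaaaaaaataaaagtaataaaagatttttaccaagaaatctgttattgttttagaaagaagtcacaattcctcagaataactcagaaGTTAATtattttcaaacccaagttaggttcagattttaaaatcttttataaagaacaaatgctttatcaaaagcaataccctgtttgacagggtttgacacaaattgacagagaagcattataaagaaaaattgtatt
Slc6a18 (chr1:31436403-31436702, plus strand): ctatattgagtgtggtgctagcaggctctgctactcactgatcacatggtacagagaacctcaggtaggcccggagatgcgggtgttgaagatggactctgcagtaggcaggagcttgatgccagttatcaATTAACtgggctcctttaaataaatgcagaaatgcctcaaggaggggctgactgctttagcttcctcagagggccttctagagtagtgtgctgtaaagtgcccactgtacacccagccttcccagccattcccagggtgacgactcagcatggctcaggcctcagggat
Slc6a19 (chr1:31414494-31414793, plus strand): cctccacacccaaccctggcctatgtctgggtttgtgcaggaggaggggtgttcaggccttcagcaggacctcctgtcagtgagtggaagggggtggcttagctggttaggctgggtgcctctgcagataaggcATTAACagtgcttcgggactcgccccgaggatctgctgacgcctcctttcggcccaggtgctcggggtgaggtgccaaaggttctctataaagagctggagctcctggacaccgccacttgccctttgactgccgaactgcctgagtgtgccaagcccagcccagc

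GTTAAT was found in 3 of the 31 promoters of members, those of Slc6a18, Slc6a19 and Slc7a12, and in 7.45% of all 33469 promoters of the table. In Slc6a18 and Slc6a19 it lay at nearly the same distance, beginning 119 and 116 bases before the start, on the strand opposite to the gene. CAAAGTCCA was found in Slc3a1 alone among the members and in 0.391% of all promoters. The antioxidant response element was in 7 promoters, those of Slc3a1, Slc3a2, Slc6a6, Slc7a1, Slc7a7, Slc36a1 and Slc38a2, and in 12.1% of all promoters. The C/EBP-ATF response element TGATGNAA was searched as well. It was in 3 promoters of members, those of Slc1a4, Slc7a1 and Slc38a1, none of them printed here, and in 3.98% of all promoters. None of the matches marked above overlapped another, and none of the motifs searched was found in this window of Slc7a9. The GC content was 33.0% in Slc7a12 and 60.7% in Slc6a19, with a median of 51.7% over all promoters. A match is a description of letters and was not tested as a site.

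Slc7a12, a light chain of the same family as Slc7a13, fell almost as far. It was at 66.2, 245 and 96.8 in control and at 0.0257, 0.369 and 0.307 in adenine samples (-8.66 ± 0.65, adjusted p = 9.82e-05). Sham samples were at 120, 58.7 and 78.1 and UUO samples at 1.06, 0.635 and 0.726 (-6.53 ± 0.29, adjusted p = 1.32e-05). Slc7a12 was highest in control replicate 2, the library that stood apart, where Slc7a13 was highest too. In sham both were highest in replicate 1.

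Of the 6 basolateral members, 2 were upregulated, 2 more rose, 1 was downregulated and 1 did not pass in the adenine model. Under UUO 1 was upregulated, 1 more rose, 1 fell at a smaller fold, 1 was downregulated and 2 did not pass. Over all entries 39.6% rose and 19.9% fell at any fold under adenine, and 56.1% and 14.4% under UUO. Slc38a3, or SNAT3, a sodium-coupled glutamine carrier whose glutamine feeds ammonia formation, was the one downregulated. It was at 136, 161 and 203 in control and at 8.65, 14.0 and 17.7 in adenine samples (-3.66 ± 0.28, adjusted p = 0.000104). It was at 160, 132 and 110 in sham and at 3.35, 3.54 and 2.58 in UUO samples (-5.36 ± 0.18, adjusted p = 6.46e-06). The log2 ratio of Slc38a2 to Slc38a3, both sodium-coupled carriers that take glutamine among their substrates, went from -1.75 ± 0.842 to 1.39 ± 0.536 and from -1.41 ± 0.270 to 4.56 ± 0.404, with groups apart in both models (exact permutation p = 0.1).

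Slc3a2, the heavy chain shared by several exchangers, was at 53.5, 43.2 and 51.9 in control and at 103, 102 and 101 in adenine samples (1.04 ± 0.11, adjusted p = 0.00034). Sham at 75.0, 78.7 and 84.1 and UUO at 79.5, 97.3 and 88.1 overlapped (0.15 ± 0.10, adjusted p = 0.207), and median-of-ratios scaling gave -0.45 (adjusted p = 0.0102). Several of its light chains rose. Slc7a7, or y+LAT1, of the exchanger of dibasic for neutral amino acids, was at 23.8, 1.87 and 3.28 in control and at 40.6, 102 and 71.4 in adenine samples (3.62 ± 0.90, adjusted p = 0.0124). The value was 2.89 without control replicate 2 and 4.69 without control replicate 1, and the gene stayed upregulated in both cases. Against sham it rose in UUO samples by 1.16 ± 0.32 (adjusted p = 0.0158), but adjusted p was 0.0528 without sham replicate 2, and median-of-ratios scaling gave 0.56 (adjusted p = 0.17).

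Slc7a8, or LAT2, of a basolateral exchanger of neutral amino acids, was at 9.01, 0.811 and 4.34 in control and at 19.7, 22.4 and 21.3 in adenine samples (2.67 ± 0.77, adjusted p = 0.0215). This call rested on few samples. Without control replicate 2 the log2 fold change was 1.74 (adjusted p = 0.00551), and adjusted p was 0.0558 without adenine replicate 2 and 0.0616 without adenine replicate 3. Sham was at 3.49, 14.7 and 19.9 and UUO at 16.5, 15.1 and 16.4, which overlapped (0.66 ± 0.60, adjusted p = 0.351). Control replicate 2 and sham replicate 1, the lowest of their groups in Slc7a8, were also the lowest in the sum of distal tubule and collecting duct markers, 122 and 242.

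Slc7a6, or y+LAT2, a light chain found in many tissues, rose in both. It was at 2.08, 4.18 and 2.07 in control and at 10.9, 7.72 and 9.43 in adenine samples (1.78 ± 0.30, adjusted p = 0.00242), and the value was 2.11 without control replicate 2. Under UUO it was upregulated, from 1.81, 1.62 and 1.29 to 11.0, 8.34 and 8.79 (2.50 ± 0.19, adjusted p = 5.9e-05), or 1.92 after median-of-ratios scaling. Slc43a2, or LAT4, a facilitated exit carrier, did not pass in the adenine model (0.50 ± 0.43, adjusted p = 0.342), where control replicate 2 was at 5.28 against 17.2 and 14.8 and the value was -0.02 without it. Slc43a2 fell in the UUO model (-0.98 ± 0.16, adjusted p = 0.0014).

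Members tied to growth and stress rose or did not pass. Under adenine 2 of 10 were upregulated, 3 more rose and 5 did not pass, so 5 of 10 rose against 39.6% of all entries. The 2 upregulated, Slc7a11 and Slc7a2, passed the FPKM minimum only through the adenine samples and so had to differ. Under UUO the same 2 were upregulated of 9 tested, 5 more rose and 2 did not pass, so 7 rose, against 56.1% of all entries. The 2 upregulated again passed the FPKM minimum only through the diseased samples. After median-of-ratios scaling 2 of the 9 rose and 1 fell, against 28.0% risen and 27.9% fallen over all entries. Slc7a11, or xCT, the light chain of the exchanger that imports cystine for glutathione synthesis, was at 0, 0.0265 and 0.0145 in control and at 12.4, 5.35 and 11.4 in adenine samples (6.35 ± 0.37, adjusted p = 4.66e-05). Sham was at 0.0057, 0.0001 and 0.0416 and UUO at 0.608, 0.511 and 0.544 (2.51 ± 0.36, adjusted p = 0.000865). The gene was next to absent in the undiseased kidneys and reached a level above 5 only in the adenine samples. With a pseudocount of 1 in place of 0.1 the UUO value was 0.61. Its promoter is shown because the gene had the highest log2 fold change in the adenine model, and no capitals appear since none of the motifs searched was found there.
Slc7a11 (chr2:136668215-136668514, minus strand): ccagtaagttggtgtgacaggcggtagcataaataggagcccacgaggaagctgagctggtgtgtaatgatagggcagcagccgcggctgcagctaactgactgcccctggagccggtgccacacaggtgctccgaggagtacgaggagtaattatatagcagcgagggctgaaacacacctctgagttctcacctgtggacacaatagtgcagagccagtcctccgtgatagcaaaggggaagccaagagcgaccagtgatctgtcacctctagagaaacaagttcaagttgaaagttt

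Slc7a2, or CAT2, a carrier of arginine and lysine, was at 0.172, 0.103 and 0.0277 in control and at 14.2, 4.67 and 11.5 in adenine samples (5.59 ± 0.48, adjusted p = 0.000166). In both Slc7a2 and Slc7a11, adenine replicate 2 was the lowest of its group. The UUO model took Slc7a2 from 0.372, 0.115 and 0.259 to 1.27, 1.14 and 1.36 (2.03 ± 0.36, adjusted p = 0.00213). This value was 1.72 without sham replicate 2, 1.98 without UUO replicate 3 and 1.54 after median-of-ratios scaling. Slc7a1, or CAT1, of like substrates, rose by 1.42 ± 0.16 in the adenine model (adjusted p = 0.000454), from 1.15 to 1.21 in control to 3.26 to 3.37. Under UUO it rose by 1.27 ± 0.30 (adjusted p = 0.00813), a call lost after median-of-ratios scaling (0.69, adjusted p = 0.0783).

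Slc7a5, or LAT1, a light chain known from growing cells, did not pass in either model. It was at 3.86, 2.13 and 3.34 in control and 2.99, 4.86 and 4.49 in adenine samples (0.40 ± 0.29, adjusted p = 0.259), and at 3.52, 5.07 and 3.65 in sham and 4.79, 4.94 and 4.13 in UUO samples (0.19 ± 0.18, adjusted p = 0.382). The log2 ratio of Slc7a5 to Slc7a8 went from -0.07 ± 1.34 to -2.39 ± 0.287 in the adenine model, with groups apart (exact permutation p = 0.1). This difference of -2.32 was -1.59 without control replicate 2. The same ratio was -1.32 ± 1.24 in sham and -1.80 ± 0.188 in UUO samples (exact permutation p = 0.7). Slc38a2, or SNAT2, a carrier of small neutral amino acids that cells induce when these are scarce, did not pass in the adenine model (-0.53 ± 0.34, adjusted p = 0.219), with 86.9 in control replicate 2 against 38.9 and 34.1, and -0.11 without that sample. Slc38a2 rose in UUO samples from 50.5, 49.4 and 50.4 to 73.1, 66.4 and 83.2 (0.56 ± 0.10, adjusted p = 0.00211), and after median-of-ratios scaling the value was -0.04.

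The glutamine carriers Slc1a5, or ASCT2, and Slc38a1, or SNAT1, rose in the adenine model, by 1.65 ± 0.20 (adjusted p = 0.000641) and 1.74 ± 0.28 (adjusted p = 0.00201). Both also rose in the UUO model, by 0.65 ± 0.22 (adjusted p = 0.0342) and 1.14 ± 0.30 (adjusted p = 0.0124). After median-of-ratios scaling these were 0.06 (adjusted p = 0.853) and 0.56 (adjusted p = 0.168). Leaving out sham replicate 1 or 3, or UUO replicate 1 or 2, also took the adjusted p of Slc1a5 in the UUO model above 0.05, to between 0.0559 and 0.0972. Slc43a1, or LAT3, rose in the UUO model (0.92 ± 0.28, adjusted p = 0.0217), though its adjusted p was 0.0678 without UUO replicate 1 and 0.0583 without UUO replicate 2, and median-of-ratios scaling gave 0.35 (adjusted p = 0.332).

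**Figure D4:**
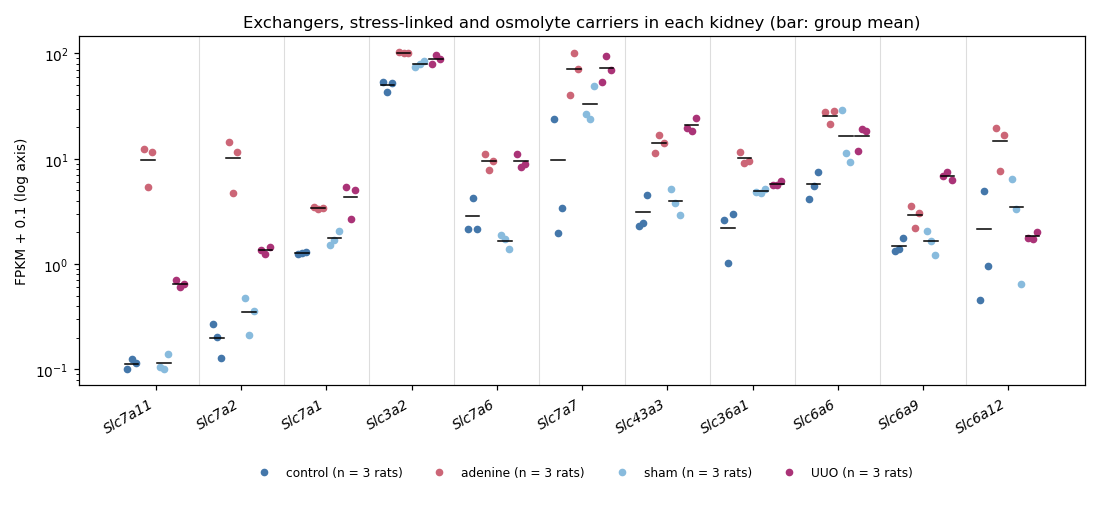
FPKM + 0.1 (log axis) of 11 exchangers, stress-linked and osmolyte carriers in each of the 12 kidneys, 1 point per rat and a bar at the group mean. Slc7a11 and Slc7a2 rise from near the bottom of the axis, furthest in the adenine samples, while Slc6a6 and Slc6a12 overlap between sham and UUO samples.

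Carriers of osmolytes, creatine and transmitters went both ways. Under adenine 2 of 8 were upregulated, 1 more rose, 2 were downregulated and 3 did not pass. Under UUO 1 of 8 was upregulated, 1 more rose, 1 fell, 2 were downregulated and 3 did not pass. Of the 2 downregulated, Slc6a4 passed the FPKM minimum only through the sham samples and so had to differ. The shares over all entries were 39.6% risen and 19.9% fallen under adenine, and 56.1% and 14.4% under UUO. Slc6a13, or GAT2, a carrier of GABA and taurine, was downregulated in both. It went from 21.5, 28.0 and 40.8 to 0.427, 1.15 and 0.779 in the adenine model (-5.13 ± 0.37, adjusted p = 8.41e-05) and from 41.2, 23.0 and 20.7 to 0.923, 2.29 and 1.52 in the UUO model (-4.10 ± 0.38, adjusted p = 0.000121).

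The osmolyte carriers of taurine (Slc6a6, TauT) and betaine (Slc6a12, BGT1), which help cells of the medulla to hold their volume, were upregulated in the adenine model and did not pass in the UUO model. Slc6a6 was at 4.09, 5.45 and 7.39 in control and at 27.5, 21.1 and 28.0 in adenine samples (2.19 ± 0.23, adjusted p = 0.000353), and the value was 1.98 without control replicate 1. Sham was at 29.0, 11.3 and 9.31 and UUO at 11.8, 19.2 and 18.1 (0.14 ± 0.43, adjusted p = 0.777). The sham samples spread more than the control samples, and replicate 1 was the highest of them.

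Slc6a12 was at 0.356, 4.90 and 0.850 in control and at 19.6, 7.48 and 16.8 in adenine samples (3.39 ± 0.86, adjusted p = 0.0135). Leaving out a control sample moved this between 2.64 (without replicate 1) and 4.37 (without replicate 2), and it stayed upregulated. Sham was at 6.30, 3.24 and 0.548 and UUO at 1.68, 1.62 and 1.93 (-0.39 ± 0.78, adjusted p = 0.669). Both osmolyte carriers were highest in sham replicate 1, whereas in control Slc6a6 was highest in replicate 3 and Slc6a12 in replicate 2.

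Slc6a9, or GLYT1, a glycine carrier, rose by 0.96 ± 0.25 in the adenine model (adjusted p = 0.0139, or 0.0507 without adenine replicate 3 and 0.0535 after median-of-ratios scaling). It was upregulated in the UUO model, from 1.98, 1.54 and 1.13 to 6.76, 7.38 and 6.15 (2.09 ± 0.22, adjusted p = 0.000226), with 1.89 without sham replicate 3 and 1.51 after median-of-ratios scaling. Slc6a17, a vesicular carrier of neutral amino acids known from neurons, was downregulated in the adenine model (-2.32 ± 0.28, adjusted p = 0.000568) and fell in the UUO model (-1.50 ± 0.12, adjusted p = 7.02e-05). Slc6a4, the serotonin carrier, was at 0.924, 0.570 and 1.28 in control and 0.910, 1.04 and 1.47 in adenine samples (0.31 ± 0.34, adjusted p = 0.453, or 0.04 without control replicate 2). It was downregulated in the UUO model, from 1.69, 1.20 and 0.963 to 0.212, 0.259 and 0.115 (-2.23 ± 0.35, adjusted p = 0.00121). Slc6a8, the creatine carrier, did not pass in either model, with log2 fold changes of -0.13 ± 0.21 (adjusted p = 0.622) and -0.02 ± 0.09 (adjusted p = 0.875). After median-of-ratios scaling it fell in the UUO model.

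Lysosomal and less characterised members are given next. In the adenine model 3 of 10 were upregulated, 5 more rose, 1 did not pass and Slc7a12 was downregulated. At any fold 8 of 10 thus rose, against 39.6% of all entries. Of these 10, Slc36a3 passed the FPKM minimum only through the adenine samples and Slc7a12 only through the control samples. These genes had to differ. Under UUO 1 of 9 was upregulated, 5 more rose, 2 did not pass and Slc7a12 was downregulated, so 6 of 9 rose, against 56.1% of all entries. After median-of-ratios scaling 3 rose and 2 fell, against 28.0% risen and 27.9% fallen over all entries. Slc36a1, or PAT1, a proton-coupled carrier found on lysosomes, was at 2.54, 0.923 and 2.91 in control and at 11.6, 9.06 and 9.36 in adenine samples (2.32 ± 0.41, adjusted p = 0.00293), or 1.83 without control replicate 2. Sham at 4.74, 4.67 and 5.02 and UUO at 5.56, 5.51 and 6.06 did not overlap but did not pass the test (0.24 ± 0.12, adjusted p = 0.111), and median-of-ratios scaling gave -0.35 (adjusted p = 0.0348). For Slc36a3 every control sample was listed at 0, while it was at 1.09, 0.607 and 0.762 in adenine samples, and no fold is given.

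Slc43a3, a carrier of purine nucleobases, adenine among them, was upregulated in both models. It was at 2.19, 2.38 and 4.44 in control and at 11.2, 16.7 and 13.9 in adenine samples (2.23 ± 0.29, adjusted p = 0.000867). In the UUO model it went from 5.05, 3.72 and 2.85 to 19.4, 18.3 and 24.3 (2.41 ± 0.22, adjusted p = 0.000126). A link to the adenine dosing was not tested. After median-of-ratios scaling it still rose, by 1.94 and 1.82. The lysosomal glutamine carrier Slc38a7 and the lysosomal arginine sensor Slc38a9 rose in both models, by 1.49 ± 0.20 (adjusted p = 0.000877) and 1.23 ± 0.17 (adjusted p = 0.00103) in the adenine model and by 1.44 ± 0.16 (adjusted p = 0.000273) and 1.40 ± 0.19 (adjusted p = 0.000588) in the UUO model.

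The models differed in 7 of the 39 members tested in both (adjusted p under 0.05 and a difference in log2 fold change of at least 2). Over all 13486 genes tested in both, 1.07% differed toward the adenine model and 1.82% toward the UUO model, and the median difference, adenine minus UUO, was -0.28. The log2 fold change was higher in the adenine model for Slc7a11 (difference 3.84 ± 0.52 SE, adjusted p = 0.000381), Slc6a12 (3.78 ± 1.16, adjusted p = 0.0289), Slc7a2 (3.56 ± 0.60, adjusted p = 0.00149), Slc6a4 (2.54 ± 0.48, adjusted p = 0.00271), Slc36a1 (2.08 ± 0.43, adjusted p = 0.00398) and Slc6a6 (2.04 ± 0.49, adjusted p = 0.00892). It was lower for Slc7a12 (-2.13 ± 0.71, adjusted p = 0.0406), and after median-of-ratios scaling that difference was -1.80 (adjusted p = 0.089). With each of the 12 samples left out in turn, the difference passed both thresholds 12 times for Slc7a11, Slc7a2 and Slc6a4, 10 times for Slc36a1, 7 for Slc6a6, 5 for Slc7a12 and 4 for Slc6a12. It was 1.59 for Slc36a1 without control replicate 2 and 1.55 for Slc6a6 without sham replicate 1. For Slc6a12 it lay between 3.03 and 4.76, and its adjusted p rose to at most 0.0683, without adenine replicate 1. For Slc7a12 it was -1.53 without adenine replicate 1 and -1.59 without control replicate 2. Slc7a11 and Slc7a2 thus rose in both models and further under adenine, whereas Slc6a4 fell in the UUO model and did not pass in the adenine model. As given above, Slc7a11, Slc7a2, Slc7a12 and Slc6a4 passed the FPKM minimum in a table only through its diseased or only through its undiseased samples. Part of their differences was therefore set by the filter, and the tallies are no separate support. With a pseudocount of 1 these differences were 2.72, 2.36, -1.05 and 1.08. The models also differ in agent, duration and undiseased group, which cannot be told apart here.

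Partners of the carriers and carriers of other families were looked at in a list of 15 symbols. In the adenine model 1 of 14 tested was upregulated and 4 were downregulated, with 4 risen and 5 fallen at an adjusted p under 0.05 alone. Under UUO 1 of 13 was upregulated and 3 were downregulated, with 4 risen and 8 fallen. Among all entries 39.6% rose and 19.9% fell under adenine, and 56.1% and 14.4% under UUO. At both thresholds 10.7% were upregulated and 5.03% downregulated under adenine, and 13.2% and 4.21% under UUO. The list's median log2 fold change was 0.18 and -1.23, against 0.30 and 0.62 over all entries. Cltrn, or collectrin, which brings Slc6a18 and Slc6a19 to the luminal membrane, was at 715, 403 and 508 in control and at 24.7, 168 and 64.9 in adenine samples (-3.03 ± 0.65, adjusted p = 0.0067). It fell from 554, 670 and 652 to 109, 192 and 192 in the UUO model (-1.97 ± 0.23, adjusted p = 0.000339).

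Slc15a2, the peptide carrier of the late proximal tubule, was downregulated in both (-3.28 ± 0.23 and -3.11 ± 0.21, adjusted p = 7.8e-05 and 4.37e-05). Slc15a1, the other peptide carrier, was downregulated in the UUO model (-2.55 ± 0.52, adjusted p = 0.00397) and did not pass in the adenine model (0.54 ± 0.88, adjusted p = 0.621). The mitochondrial carriers of glycine (Slc25a38) and ornithine (Slc25a15) were downregulated in the adenine model (-2.21 ± 0.17 and -2.01 ± 0.27) and fell in the UUO model (-1.60 ± 0.08 and -1.40 ± 0.13). The mitochondrial aspartate-glutamate carrier Slc25a13 fell in the adenine model (-1.33 ± 0.26) and was downregulated in the UUO model (-2.17 ± 0.16). The upregulated gene was Slc15a3, a lysosomal carrier of histidine and peptides known from macrophages, at 3.05 ± 0.21 and 2.49 ± 0.17. The macrophage markers given above also rose in both models, and a link between them and Slc15a3 was not tested.

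A second list of 16 held genes of the amino acid response, the programme that cells start when amino acids run short. In the adenine model 2 of 15 tested were upregulated and 1 downregulated, with 3 risen and 3 fallen at an adjusted p under 0.05 alone. Under UUO 2 of 16 were upregulated and 1 downregulated, with 12 risen and 2 fallen. Over all entries 13.2% were upregulated and 56.1% rose under UUO, and 10.7% and 39.6% under adenine. The shares downregulated and fallen were 4.21% and 14.4% under UUO, and 5.03% and 19.9% under adenine. The list's median log2 fold changes were 0.12 and 0.87, against 0.30 and 0.62 over all entries. Atf3, a stress transcription factor, and Mthfd2, a mitochondrial folate enzyme, were upregulated in both (Mthfd2 by 2.49 ± 0.27 and 2.37 ± 0.27), and Psat1 of serine synthesis was downregulated in both (-2.25 ± 0.17 and -2.12 ± 0.14). Atf3 went from 1.07, 1.64 and 2.48 FPKM in control to 51.0, 34.7 and 47.2 in adenine samples and from 2.98, 1.20 and 1.53 in sham to 29.8, 30.3 and 29.4 in UUO samples. Atf4, the transcription factor that leads the response, stood at 0.12 ± 0.24 in the adenine model (adjusted p = 0.694) and rose by 0.68 ± 0.14 in the UUO model (adjusted p = 0.00414), little more than the shift of all entries there.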

How the data were processed

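RNA-seq was done by the authors on poly(A) RNA of 12 rat kidneys, 3 per group, and samples were grouped by their labels. Per the labels' processing notes, the submitters used cutadapt 1.9, HISAT2 2.0.4 and StringTie 1.3.4d, and also name edgeR and DESeq2. The genome build and annotation are not given in the sources used here. The authors deposited FPKM values per gene in 2 tables made separately, with no read counts, so depth is unknown and precision is given by the spread between 3 rats. The deposited columns of the authors' comparisons (fold changes and p-values) were not used.

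The members and the lists were chosen with earlier results of these data known. Each table was fitted by itself with limma 3.58.1 (lmFit, eBayes with a trend) in R 4.3.3 on log2(FPKM + 0.1), keeping entries that reached an FPKM of 0.5 in 3 or more samples, with Benjamini-Hochberg adjustment over all of them. The fit was tested on simulated data. The models were compared by subtracting log2 fold changes, with standard errors combined as independent and a t distribution whose degrees of freedom are those of both fits added. Shares and ratios were tested with the exact two-sided permutation test over 10 splits (scipy 1.17.1). Median-of-ratios scaling brings the typical gene of every sample to one level.

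Named genes were members called in either model or different between the models, the 10 highest members in control and in sham, the heavy and light chains, and called genes of the companion lists. Other members are named where a small count needs it or were chosen after their values were seen. Other settings tried were median-of-ratios, quantile and same-sum scaling, a pseudocount of 1 or 0.01, dropping the filter or raising it to an FPKM of 1, eBayes without the trend, a replicate block and leaving out each sample, which was extended to the difference between the models after seeing the data. An item of the companion lists is not reported here and was left out of their counts.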

Additional observations from a re-analysis of the deposited data

Results flagged for a closer look

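The members named here were picked out because their log2 fold changes differed between the models, by the test of the difference itself. The difference, adenine minus UUO, was 3.84 for Slc7a11, 3.78 for Slc6a12, 3.56 for Slc7a2, 2.54 for Slc6a4, 2.08 for Slc36a1, 2.04 for Slc6a6 and -2.13 for Slc7a12. Of the 9 other settings, the difference passed both thresholds in 9 for Slc7a2, in 8 each for Slc7a11, Slc6a12, Slc36a1 and Slc6a6, in 7 for Slc6a4 and in 3 for Slc7a12. With 1 of the 12 samples left out, an alternative chosen after seeing the data, the differences of Slc7a11, Slc7a2 and Slc6a4 passed in 12 of 12 cases, that of Slc36a1 in 10, Slc6a6 in 7, Slc7a12 in 5 and Slc6a12 in 4. Slc7a11, Slc7a2, Slc6a4 and Slc7a12 passed the FPKM minimum in a table only through its diseased or only through its undiseased samples. For them these counts are no separate support.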

How the results depend on the processing

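Over 27 named members, 762 values were computed under alternatives, of which 696 kept their direction and their side of the thresholds, 32 lost a call, 11 gained one and 23 changed sign. The number of reads is unknown, so the counting error of low values, such as those of Slc7a11 in undiseased kidneys, cannot be estimated.

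In the UUO model, upregulated members numbered 5, against 2 with a pseudocount of 1, 1 with median-of-ratios scaling and 0 with quantile normalization. In the last case limma also gave 0 at an unadjusted p under 0.05 and a log2 fold change of at least 2, and 10 at an unadjusted p under 0.05 and any rise. Downregulated members numbered 7 and became 11 under either of these scalings. Those that rose by adjusted p alone numbered 17, against 8 and 9. The shares of all entries moved too. Upregulated entries were 13.2%, against 6.90% with a pseudocount of 1, 8.30% with median-of-ratios scaling and 6.96% with quantile normalization. Downregulated entries were 4.21%, against 6.34% and 6.71% under these scalings, and risen entries 56.1%, against 28.0% and 29.3%. Members that differed between the models numbered 7, against 3 with a pseudocount of 1 and between 3 and 7 when 1 sample was left out (3 without adenine replicate 1, 4 without adenine replicate 3 or UUO replicate 1). The cause of these shifts was not tested. The difference in the log2 ratio of Slc7a5 to Slc7a8 in the UUO model was -0.47 and ranged from -1.03 to 0.19 when 1 sample was left out, the highest value without sham replicate 1.

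Among the 27 named members, values that changed sign belonged to those that had not passed the test, other than Slc38a2 under UUO, at -0.039 with median-of-ratios scaling. Of the others, Slc38a10 under UUO had risen and came to -0.0065 with that scaling. In the adenine model, quantile normalization gave -0.31 for Slc6a4 and -0.091 for Slc7a5, and the same sum gave 0.14 for Slc6a8. Leaving out 1 sample moved Slc6a8 between -0.30 and 0.034 and Slc7a9 between -0.93 and 0.099. For UUO against sham, median-of-ratios scaling gave -0.35 for Slc36a1, -0.45 for Slc3a2, -0.45 for Slc6a6 and -0.40 for Slc7a5. Quantile normalization gave -0.50 for Slc36a1, -0.37 for Slc6a6 and -0.56 for Slc7a5, and the same sum gave 0.21 for Slc6a8 and 0.0029 for Slc7a9. Leaving out 1 sample moved Slc6a12 between -1.33 and 0.32, Slc6a6 between -0.17 and 0.64, Slc6a8 between -0.086 and 0.029 and Slc7a8 between -0.096 and 1.14.

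With the replicate block, 10 members were upregulated and 9 downregulated under adenine, and 5 and 7 under UUO. Correlations between deviations of same-numbered samples were -0.077, -0.12 and -0.049 between control and adenine samples and 0.050, 0.11 and 0.059 between sham and UUO samples. Those of samples with unlike numbers lay between -0.044 and 0.11 and between -0.078 and 0.016. With 3 samples per group, these values cannot settle whether samples of the same number were handled together.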
